A study of Mus musculus with 6 samples.

Results

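Mitochondrial solute carriers were followed in the epididymal white adipose tissue of mice whose fat cells lack CNOT3. They were chosen by name: every gene whose symbol in the probe annotation was Slc25a followed by digits, together with Ucp2, Ucp3, Mpc1 and Mpc2. A RefSeq gene table holds 51 such genes, and 46 of them, of 18193 named genes in all, had a probe set that named only that gene. The others, Mpc2 and Ucp2 among them, were not analysed here. The 46 genes had 96 probe sets, and each gene was read from the probe set that was brightest on average across the 6 arrays. The CNOT3KO group held 3 mice in which Cre recombinase, expressed from the Adiponectin promoter, had removed Cnot3, and the WT group held 3 wild-type control mice. All 6 mice were C57BL/6, were bred in SPF condition and were 8 weeks old. Whether the WT mice carried floxed alleles or Cre is not given in the sources used here. Total RNA from the whole fat pad was labelled with biotin and hybridised to 1 Affymetrix array per mouse. CNOT3 is a subunit of CCR4-NOT, the complex that removes poly(A) tails from mRNAs, and the comparison asked which mRNAs differ in fat when its adipocytes lack that subunit.

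The inner membrane of a mitochondrion is closed to charged metabolites, and the SLC25 proteins carry them across it. They share a fold of repeated membrane helices, and most exchange a molecule inside for a molecule outside: ADP for ATP, citrate for malate, aspartate for glutamate, or acylcarnitine for carnitine. A few members sit elsewhere, such as SLC25A17 in peroxisomes and SLC25A46 in the outer mitochondrial membrane. Uncoupling proteins belong to the same family, whereas MPC1 and MPC2 form the pyruvate carrier and are unrelated in sequence. In white adipocytes the citrate carrier is known for exporting citrate, from which cytosolic acetyl-CoA for fatty acid synthesis is made.

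The promoters of the 4 carriers that differed by at least 2-fold are shown first, since these genes had the largest log2 differences among the carriers at the offset used here. Each stretch runs from 250 bases before to 50 bases after a RefSeq start listed for the gene in GRCm38.p6, 5′ to 3′ on the strand of the gene. Capitals mark matches, on either strand, to 5 short motifs: the E-box CACGTG, the ETS motif CCGGAAG, the core TGACG of the cAMP response element, the NRF1 core GCATGCGC and the CCAAT box. The first pair of carriers was higher in CNOT3KO fat and the second pair lower.
Slc25a13, minus strand, chr6:6217124-6217423: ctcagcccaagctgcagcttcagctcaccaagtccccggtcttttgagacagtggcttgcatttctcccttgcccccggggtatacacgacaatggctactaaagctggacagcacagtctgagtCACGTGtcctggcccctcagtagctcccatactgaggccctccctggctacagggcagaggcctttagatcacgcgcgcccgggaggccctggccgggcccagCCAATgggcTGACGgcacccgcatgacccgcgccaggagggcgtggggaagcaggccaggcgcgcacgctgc
Slc25a34, minus strand, chr4:141623785-141624084: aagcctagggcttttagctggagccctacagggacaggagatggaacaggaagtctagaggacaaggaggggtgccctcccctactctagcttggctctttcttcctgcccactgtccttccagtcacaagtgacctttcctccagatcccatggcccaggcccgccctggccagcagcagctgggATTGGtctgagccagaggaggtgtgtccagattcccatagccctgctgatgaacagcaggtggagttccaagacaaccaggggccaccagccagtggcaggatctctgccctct
Slc25a16, plus strand, chr10:62920383-62920682: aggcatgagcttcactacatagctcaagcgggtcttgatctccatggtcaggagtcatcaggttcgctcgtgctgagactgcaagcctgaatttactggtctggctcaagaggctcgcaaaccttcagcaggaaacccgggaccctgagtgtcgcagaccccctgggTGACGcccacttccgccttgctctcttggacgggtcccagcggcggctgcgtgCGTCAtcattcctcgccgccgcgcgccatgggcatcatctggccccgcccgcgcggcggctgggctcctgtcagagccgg
Slc25a23, minus strand, chr17:57059814-57060113: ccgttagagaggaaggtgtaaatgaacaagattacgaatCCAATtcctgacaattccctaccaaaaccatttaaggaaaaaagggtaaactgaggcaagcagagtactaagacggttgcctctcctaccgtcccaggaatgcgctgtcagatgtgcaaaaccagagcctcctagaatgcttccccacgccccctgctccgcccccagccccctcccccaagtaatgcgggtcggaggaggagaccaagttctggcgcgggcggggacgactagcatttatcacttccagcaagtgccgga

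The Slc25a13 stretch held an E-box at base 126, a CCAAT box at base 229 and a TGACG at base 238. The Slc25a34 stretch held a CCAAT box on the other strand at base 187. In Slc25a16 the TGACG lay at base 168 and, on the other strand, at base 221, and in Slc25a23 a CCAAT box lay at base 40. So no motif of the 5 stood in all 4 of these stretches. RefSeq windows were at hand for 36 of the 46 carriers, 46 windows in all because some genes have several starts. Slc25a23 was among these, and its other window, not shown, held a CCAAT box at base 19. The E-box stood in 17.4% of the carriers' windows and in 7.15% of all 32851 windows. The ETS motif stood in 17.4% of the carriers' windows and 8.86% of all, TGACG in 30.4% and 20.8%, the NRF1 core in 4.35% and 2.71%, and the CCAAT box in 47.8% and 37.4%. Each motif was thus found in a higher share of carrier windows than of all windows, with no test made of these shares. Among the carriers whose mRNA level differed, the E-box stood in 2 of 8 higher genes (Slc25a1 and Slc25a13) and in 3 of the 11 lower genes that had a window (Slc25a15, Slc25a33 and Slc25a36). The CCAAT box stood in 4 higher and 7 lower genes, TGACG in 2 and 4, the ETS motif in 1 and 2, and the NRF1 core in 0 and 0. These counts take any window of a gene, so they cannot be set beside the shares of windows. Matching letters describe the sequence and say nothing of binding in fat.

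The tissue as a whole differed between the groups, which is given here as context for the carriers below. Cnot3 read 201 ± 25.6 in CNOT3KO and 301 ± 7.02 in WT (SD, n = 3 each; log2 difference -0.54, limma adjusted p = 0.0131), and its dimmer probe set averaged 227 and 264 (log2 -0.19, not passed). Whether these probe sets lie inside the deleted part was not analysed here. Macrophage markers passed as higher in 11 of 13 cases, and their summed signal lay between 51234 and 73297 in CNOT3KO and between 23359 and 29489 in WT. All 10 endothelial markers passed as lower, with sums of 6481 to 7399 in CNOT3KO and 19070.1 to 19574 in WT. All 7 tested cell cycle genes passed as higher, with sums of 3126 to 3911 in CNOT3KO and 697 to 735 in WT. Of 10 adipocyte markers 3 passed as lower (Lep, Cidec and Plin4), and the sums were 138316 to 166939 in CNOT3KO and 157543 to 198937 in WT. Brown or beige adipocyte markers passed as higher in 4 and lower in 3 of 8 tested cases, with sums of 7320.0 to 11277 in CNOT3KO and 4010.4 to 5402 in WT. Of 6 tested T and NK cell markers 2 passed as higher (sums 1821 to 2549 in CNOT3KO, 843 to 1057 in WT), and both tested B cell markers passed as lower (sums 44.3 to 108 in CNOT3KO, 138 to 448 in WT). None of 3 tested skeletal muscle markers passed (sums 633 to 697 in CNOT3KO, 728 to 1305 in WT), and the 7 epididymis and testis genes with a probe set were all too dim to test (sums 128 to 155 in CNOT3KO, 130.1 to 173 in WT). No marker was at 0, since the lowest value in the table is 1. The part of these shifts in the carriers' differences was not tested, and in bulk tissue fewer cells of a type and less RNA per cell cannot be told apart.

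Carriers moved in both directions, and the genes that fell outnumbered those that rose. Of the 46 carriers, 40 were bright enough to test with limma on log2(signal + 22.5), with p-values adjusted over all 12769 tested genes. At an adjusted p under 0.05, 8 carriers were higher in CNOT3KO (20% of 40, against 23.2% of all tested genes) and 13 were lower (32.5%, against 16.9%), while 19 did not pass. In either direction this makes 21 of 40, or 52.5%, against 40.1% of all tested genes. The median log2 difference was -0.13 over the carriers and 0.02 over all tested genes. The share that rose was thus near the background, and the share that fell stood above it, with no test of these shares made. Of the 8 higher carriers, Slc25a13 and Slc25a34 were bright enough to test only through their CNOT3KO arrays, so their part in these counts supports nothing. The split depends on the scaling: with arrays set to a common median over the tested genes, 3 carriers were higher and 13 lower, against 2318 higher and 2800 lower among all genes, where the signals as deposited gave 2959 higher and 2156 lower. That centring moved the median of all tested genes to -0.07.

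In 24 of the 40 tested carriers (60%, against 51.7% of all tested genes) the 3 CNOT3KO values were all above or all below the 3 WT values. Of the 21 carriers that passed, 20 were among them, the exception being Slc25a20. The other 4, Slc25a25 with CNOT3KO values below WT and Slc25a11, Slc25a32 and Mpc1 with CNOT3KO values above WT, did not pass. At least 2-fold differences were seen in 4 carriers (10%, against 9.82% of all tested genes), Slc25a13 and Slc25a34 among them. Both are also among the 24 carriers with groups apart. They were tested only because of their CNOT3KO arrays, so their part in these counts supports nothing. Fold values here are on the log2(signal + 22.5) scale, so they understate the change of dim genes.

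**Figure D1:**
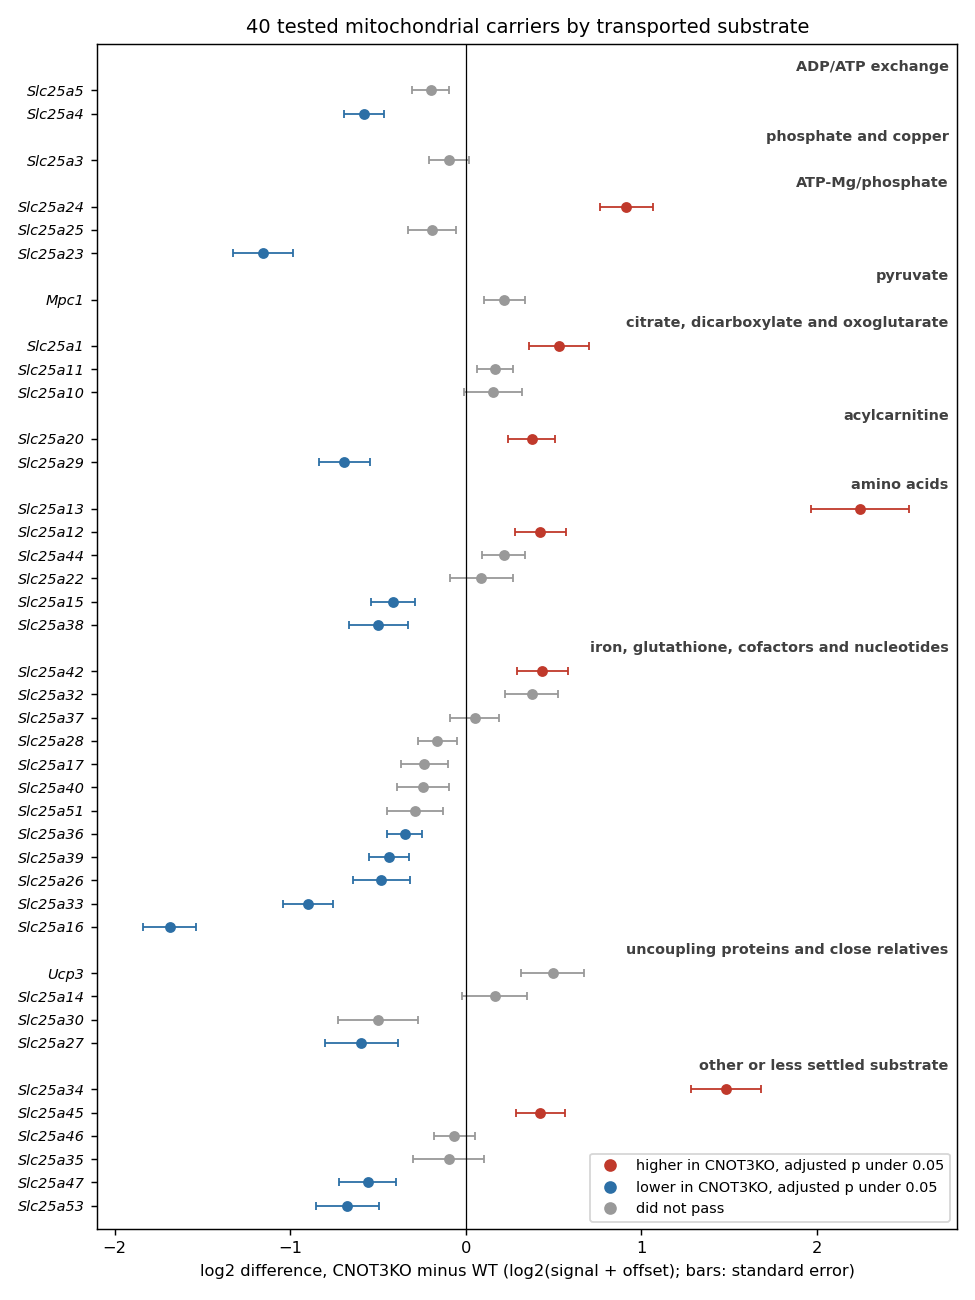
Log2 difference (CNOT3KO minus WT, on log2(signal + 22.5)) of the 40 tested carriers, grouped by transported substrate, with bars for the standard error of the limma fit (n = 3 arrays per group). The 8 carriers that passed as higher and the 13 that passed as lower are spread over the substrate groups, from 2.25 in Slc25a13 down to -1.69 in Slc25a16.

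The 2 genes with the largest rises were dim in WT fat. Slc25a13 encodes citrin, an exchanger of aspartate for glutamate that is best known in liver. Its signal was 144, 181 and 154 in CNOT3KO and 11.1, 34.7 and 6.55 in WT, so every CNOT3KO array lay above every WT array. The means were 159.6 ± 19.2 in CNOT3KO and 17.5 ± 15.1 in WT (SD, n = 3 each). All 3 WT values lay below the signal of 51.6 used as the lower limit for testing a gene's mean, so the gene was tested only because of its CNOT3KO arrays, and its p is not given as support. The size of the difference follows the offset: on the log2 scale it was 3.43 with an offset of 1, 2.25 with 22.5 and 1.23 with 88.5. Slc25a34, an inner membrane carrier whose substrate is unsettled, read 171, 136 and 198 in CNOT3KO and 40.1, 44.3 and 51.5 in WT. Its groups also stood apart, at 168 ± 31.4 in CNOT3KO and 45.3 ± 5.76 in WT (SD, n = 3 each). Its 3 WT values were likewise all below 51.6, and its log2 difference was 1.86, 1.48 and 0.93 with offsets of 1, 22.5 and 88.5.

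Slc25a16 showed the deepest fall. It is linked to coenzyme A in mitochondria, from work on its yeast counterpart. Its signal was 705, 634 and 713 in CNOT3KO and 2843, 2132 and 1875 in WT. The CNOT3KO arrays lay close together and far below the WT arrays, at 684 ± 43.7 in CNOT3KO and 2283 ± 501 in WT (SD, n = 3 each), which is 0.311 of WT (log2 -1.69, SE 0.15, limma adjusted p = 5.1e-05). Slc25a33, a carrier of pyrimidine nucleotides into mitochondria, read 595, 526 and 714 in CNOT3KO and 1301, 1041 and 1124 in WT. These groups were apart as well, with a ratio of 0.537 (log2 -0.90, SE 0.14, limma adjusted p = 0.000956).

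**Figure D2:**
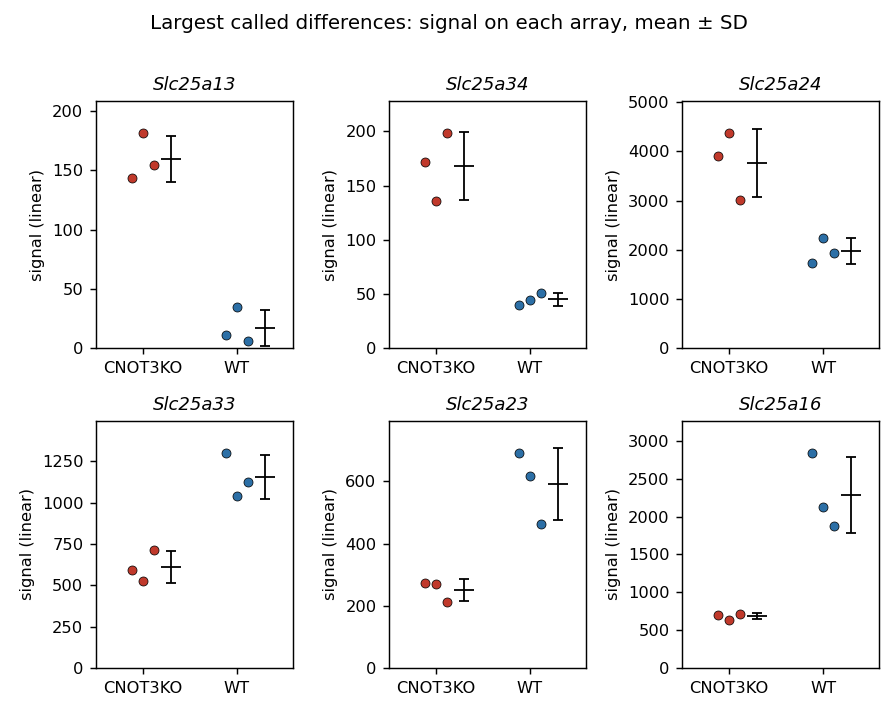
Linear signal on each array (points) with mean ± SD (n = 3 per group) for the 6 carriers that passed with an absolute log2 difference of at least 0.8, CNOT3KO left and WT right in each panel. In each panel the groups do not overlap: Slc25a13, Slc25a34 and Slc25a24 are higher in CNOT3KO, and Slc25a33, Slc25a23 and Slc25a16 are lower.

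The carriers that exchange ATP with phosphate moved in opposite directions. These proteins, several of them regulated by calcium, set the size of the adenine nucleotide pool in the matrix. Slc25a24 read 3912, 4364 and 3005 in CNOT3KO and 1729.9, 2250.5 and 1935 in WT. All CNOT3KO arrays were above all WT arrays, 1.89-fold on the mean (log2 0.91, SE 0.15, limma adjusted p = 0.00135), and its dimmer probe set gave log2 0.87. Slc25a23 read 272, 270.1 and 211 in CNOT3KO and 692, 618 and 465 in WT. All CNOT3KO arrays were below all WT arrays, with a ratio of 0.448 (log2 -1.16, SE 0.17, limma adjusted p = 0.00071). Slc25a25 did not pass, at 285 ± 12.6 in CNOT3KO and 329.6 ± 41.0 in WT (SD, n = 3 each; log2 -0.19), and Slc25a41 was too dim to test, at 4.56 in CNOT3KO and 4.89 in WT. In the RefSeq gene order Slc25a41 is the neighbour of Slc25a23, and Slc25a54, also too dim to test, is the neighbour of Slc25a24. Members of this group thus differed in sign although they carry the same substrates: the within-array log2 ratio of Slc25a23 to Slc25a24 was 2.07 lower in CNOT3KO than in WT. The groups did not overlap in that ratio, but with 3 arrays against 3 the smallest two-sided p of the exact permutation test is 0.1, which is the value found (0.2 after Benjamini-Hochberg adjustment over 6 pairs).

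The ADP/ATP exchangers supply the cytosol with ATP made by the respiratory chain. Slc25a4 encodes ANT1, the form of heart and muscle, and Slc25a5 encodes ANT2. Slc25a4 read 9205, 7655 and 8093 in CNOT3KO and 12469, 13736 and 11162 in WT. The groups stood apart, with a ratio of 0.669 (log2 -0.58, SE 0.12, limma adjusted p = 0.0035). This size rests on the probe set: the other 2 tested probe sets of Slc25a4 gave log2 differences of -0.10 and -0.24 and did not pass when tested singly, and the mean of all probe sets gave -0.31 (adjusted p = 0.0311). The probe set at -0.10 is of a type open to cross-hybridisation, and whether it also reads Slc25a5 was not tested. Slc25a5 read 10008, 9961 and 11522 in CNOT3KO and 11361, 11914 and 12907 in WT. Its groups overlapped slightly and the difference did not pass (log2 -0.20, SE 0.10, limma adjusted p = 0.154). All 8 of its tested probe sets lay below 0, between -0.37 and -0.15, and none passed. The within-array ratio of Slc25a4 to Slc25a5 was lower by 0.38 on the log2 scale in CNOT3KO, with overlapping groups (exact permutation p = 0.2, adjusted 0.3), and the difference was -0.049 with their probe sets averaged (exact permutation p = 0.9). With probe sets open to cross-hybridisation passed over, the difference was -0.33 (exact permutation p = 0.2). Slc25a31, the exchanger of testis, was too dim to test at 24.6 in CNOT3KO and 26.5 in WT. Slc25a3, which brings in the phosphate for ATP synthesis and also carries copper, read 12693, 14284 and 15308 in CNOT3KO and 13519, 15482 and 16149 in WT. Its groups overlapped and it did not pass (log2 -0.09, SE 0.11, limma adjusted p = 0.542).

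Of the 4 tested carriers of pyruvate, citrate, dicarboxylates and oxoglutarate, 1 passed, the citrate carrier Slc25a1, as higher. Among all tested genes 40.1% passed in either direction. Mpc1, a subunit of the pyruvate carrier, read 14959.6, 14817 and 18492 in CNOT3KO and 14199.8, 14343 and 12727 in WT. The CNOT3KO arrays were all above the WT arrays, yet the difference did not pass (log2 0.22, SE 0.12, limma adjusted p = 0.163). Slc25a1, the citrate carrier, read 5623, 5932 and 8063 in CNOT3KO and 4834, 5139 and 3583 in WT. It passed as higher, 1.44-fold (log2 0.53, SE 0.17, limma adjusted p = 0.0331), with groups that did not overlap. The call was lost under 8 of 19 alternative settings. Among them were leaving out CNOT3KO mouse 3 (log2 0.37) or WT mouse 3 (0.37), and array weights (0.33). Centring on the median gene (0.43) or on ribosomal protein genes (0.49) lost it as well. Slc25a10, the dicarboxylate carrier, read 2846, 2699 and 3799 in CNOT3KO and 3195, 2924 and 2251 in WT. Slc25a11, the exchanger of oxoglutarate for malate, read 2271, 2223 and 2634 in CNOT3KO and 2164, 2142 and 2024 in WT. Neither passed (log2 0.16 with overlapping groups and 0.17 with groups apart), and their within-array ratio differed by only -0.01 (exact permutation p = 1.0).

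Slc25a20 exchanges acylcarnitine for carnitine and so brings long-chain fatty acids to beta-oxidation. It read 5068, 4377 and 5320.1 in CNOT3KO and 4453, 3233 and 3746 in WT. The groups overlapped, since the lowest CNOT3KO array lay below the highest WT array, and the difference only just passed (1.30-fold, log2 0.37, SE 0.13, limma adjusted p = 0.0497). It no longer passed under 12 of 19 alternative settings, among them without CNOT3KO mouse 1 (0.35) or 3 (0.32), without WT mouse 2 (0.26) or 3 (0.37), and with either centring (0.28 and 0.33). With every probe set tested singly over all probe sets, the brighter of Slc25a20 did not pass (log2 0.37, limma adjusted p = 0.0562) and the dimmer did (0.51, adjusted p = 0.0486). Slc25a29, listed beside it as an acylcarnitine carrier, is now known for carrying basic amino acids, and it fell. Its means were 246 ± 12.9 in CNOT3KO and 415 ± 65.3 in WT (SD, n = 3 each; log2 -0.69, limma adjusted p = 0.0046). All 5 of its tested probe sets passed as lower, with log2 differences between -1.09 and -0.69. Slc25a47, its neighbour in the RefSeq gene order and a carrier known mainly from liver, was also lower, at 167 ± 22.1 in CNOT3KO and 256 ± 32.8 in WT (SD, n = 3 each; log2 -0.56, limma adjusted p = 0.0214). The Slc25a47 call was lost without CNOT3KO mouse 3 (-0.46), WT mouse 2 (-0.51) or WT mouse 3 (-0.51).

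**Figure D3:**
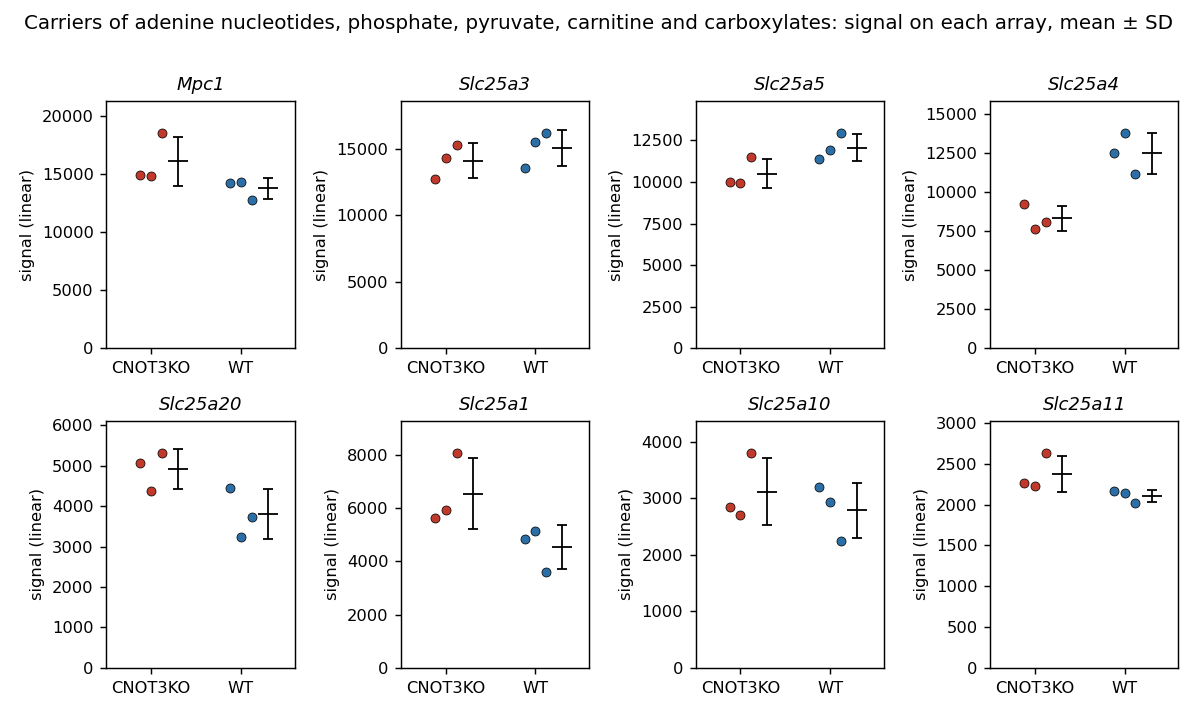
Linear signal on each array (points) with mean ± SD (n = 3 per group) for 8 carriers of adenine nucleotides, phosphate, pyruvate, carnitine and carboxylates, CNOT3KO left and WT right. Of these, Slc25a4, lower in CNOT3KO, and Slc25a1 and Slc25a20, higher in CNOT3KO, passed the test (40.1% of all tested genes passed). The groups of Slc25a20 overlap.

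Of the 6 tested amino acid carriers, 2 passed as higher, 2 as lower and 2 did not pass (66.7% called, against 40.1% of all tested genes). The higher 2 include Slc25a13, tested only because of its CNOT3KO arrays, so its part in the count supports nothing. Beside Slc25a13, its relative Slc25a12 (aralar) passed as higher, at 426 ± 64.3 in CNOT3KO and 310.2 ± 24.1 in WT (SD, n = 3 each; log2 0.42, limma adjusted p = 0.0414). Both exchange aspartate for glutamate and are part of the malate-aspartate shuttle, which moves reducing equivalents into mitochondria. The Slc25a12 call was lost without CNOT3KO mouse 1 (0.40) or 2 (0.33), without WT mouse 2 (0.39) or 3 (0.40), with either centring (0.33 and 0.38) and with the mean of all probe sets (0.12). That mean takes in a probe set of opposite sign (log2 -0.33, not passed singly) and another too dim to test. The within-array log2 ratio of Slc25a12 to Slc25a13 differed (CNOT3KO minus WT) by an amount that follows the offset, Slc25a13 being dim in WT. The difference was -2.98, -1.82 and -0.87 with offsets of 1, 22.5 and 88.5. The groups were apart (exact permutation p = 0.1 at each, adjusted 0.2 at 22.5). Since Slc25a13 was tested only because of its CNOT3KO arrays, this separation and its p are not given as support. Slc25a15, the ornithine carrier of the urea cycle, was lower, at 545 ± 42.1 in CNOT3KO and 736 ± 84.9 in WT (SD, n = 3 each; log2 -0.42, limma adjusted p = 0.025). Its call was lost without CNOT3KO mouse 3 (-0.36) or WT mouse 1 (-0.33), with centring on ribosomal protein genes (-0.46) and with the mean of all probe sets (-0.16). That mean takes in its other probe set, which was too dim to test. Slc25a38 imports the glycine used to start haem synthesis. It was lower, at 327 ± 73.9 in CNOT3KO and 464 ± 27.6 in WT (SD, n = 3 each; log2 -0.50, limma adjusted p = 0.0414), and its call was lost without CNOT3KO mouse 1 (-0.31) or without any 1 of the WT mice (-0.45 without mouse 1, -0.53 without mouse 2, -0.52 without mouse 3). Slc25a44, a carrier of branched-chain amino acids in brown fat, read 1104 ± 64.8 in CNOT3KO and 951 ± 129 in WT (log2 0.22), and the glutamate carrier Slc25a22 read 920.0 ± 253 in CNOT3KO and 845 ± 69.1 in WT (SD, n = 3 each; log2 0.09). Neither passed. Slc25a2, Slc25a18 and Slc25a48 were too dim to test.

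Carriers of cofactors, glutathione, iron and nucleotides were the group with the most members. Of the 12 tested, 5 passed as lower, 1 as higher and 6 did not pass (50% called, against 40.1% of all tested genes). Their median log2 difference was -0.27, against 0.02 over all tested genes. For 2 of the 5, Slc25a26 and Slc25a36, the sign depended on the probe set. Beside Slc25a16 and Slc25a33, Slc25a39, an importer of glutathione, was lower, at 6799.7 ± 837 in CNOT3KO and 9180.1 ± 609 in WT (SD, n = 3 each; log2 -0.44, limma adjusted p = 0.014). Another 2 of its 4 tested probe sets passed as lower singly (-0.80 and -0.69) and the last did not (-0.23). The Slc25a39 call was lost without CNOT3KO mouse 1 (-0.34) or WT mouse 2 (-0.43), and when probe sets open to cross-hybridisation were passed over (-0.23). Its relative Slc25a40 read 395 ± 57.3 in CNOT3KO and 473 ± 60.4 in WT (SD, n = 3 each; log2 -0.25) and did not pass. Slc25a26 imports S-adenosylmethionine, the methyl donor. It passed as lower by its brighter probe set, at 398 ± 82.4 in CNOT3KO and 559 ± 58.4 in WT (SD, n = 3 each; log2 -0.48, limma adjusted p = 0.0382), while the other probe set had the opposite sign (log2 0.31, not passed), so the direction depends on the probe set. The call was also lost without CNOT3KO mouse 1 (-0.48) or 2 (-0.34), without WT mouse 2 (-0.50) or 3 (-0.40), and with the mean of all probe sets (-0.09).

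Slc25a36, the other pyrimidine nucleotide carrier, was lower by its brightest probe set, at 2457 ± 25 in CNOT3KO and 3139 ± 272 in WT (SD, n = 3 each; log2 -0.35, limma adjusted p = 0.0207). Another of its probe sets passed as higher singly, at means of 354 in CNOT3KO and 246 in WT (log2 0.48, adjusted p = 0.027), and the last did not pass (-0.36). It is the only carrier called in both directions, so the gene has no settled direction here. The call of the brightest probe set was lost without CNOT3KO mouse 1 (-0.35) or 2 (-0.34), without WT mouse 1 (-0.28) or 2 (-0.37), with centring on ribosomal protein genes (-0.39) and with the mean of all probe sets (-0.07). Within arrays the log2 ratio of Slc25a33 to Slc25a36 was lower by 0.55 in CNOT3KO, with groups apart (exact permutation p = 0.1, adjusted 0.2). Slc25a42, a carrier of coenzyme A, was the 1 member of the group that passed as higher, at 365 ± 45.8 in CNOT3KO and 264 ± 28.2 in WT (SD, n = 3 each; log2 0.43, limma adjusted p = 0.0379). That call was lost without CNOT3KO mouse 1 (0.34) or 3 (0.47), without WT mouse 2 (0.36) or 3 (0.43), with either centring (0.34 and 0.39) and with the mean of all probe sets (0.29).

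Slc25a32, which carries folate or FAD, read 404, 413 and 521 in CNOT3KO and 305, 319.7 and 391 in WT. The groups stood apart but the difference did not pass (log2 0.38, SE 0.15, limma adjusted p = 0.0734). It passed without WT mouse 3 (0.48). The mitoferrins, which import iron, showed no difference that passed: Slc25a37 read 375 ± 49.6 in CNOT3KO and 360.0 ± 25.8 in WT, and Slc25a28 read 1127 ± 91.6 in CNOT3KO and 1263 ± 86.1 in WT (SD, n = 3 each; log2 0.05 and -0.16). Their within-array ratio also overlapped between the groups (Slc25a28 to Slc25a37 lower by 0.21 on the log2 scale in CNOT3KO, exact permutation p = 0.3, adjusted 0.36). Slc25a51, the importer of NAD+, read 5481 ± 1390.3 in CNOT3KO and 6577 ± 449 in WT (SD, n = 3 each; log2 -0.29, limma adjusted p = 0.182), with CNOT3KO mouse 3 above all other mice. It passed as lower without that mouse (-0.49, adjusted p = 0.00763), yet another probe set of the gene passed as higher singly (0.50, adjusted p = 0.0417). The peroxisomal carrier Slc25a17 read 816 ± 119.9 in CNOT3KO and 961 ± 86.2 in WT (SD, n = 3 each; log2 -0.24, not passed).

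Among the 4 tested uncoupling proteins and close relatives only Slc25a27 passed (25% called, against 40.1% of all tested genes). Uncoupling proteins let protons leak through the inner membrane or are named for their likeness to the protein that does so in brown fat. Ucp3 read 790.2, 725 and 957 in CNOT3KO and 762, 487 and 510.4 in WT. WT mouse 1 lay above CNOT3KO mouse 2, so the groups overlapped, and the difference narrowly did not pass (1.41-fold, log2 0.49, SE 0.18, limma adjusted p = 0.0525). It passed without CNOT3KO mouse 2 (0.58) or WT mouse 1 (0.69), with array weights (0.53) and with the stricter filter on dim genes (0.49). Slc25a30, also called UCP6, read 875, 966 and 921 in CNOT3KO and 1811, 857 and 1443 in WT. WT mouse 2 lay below every CNOT3KO mouse, and the difference did not pass (log2 -0.50, SE 0.23, limma adjusted p = 0.106), whereas it passed without WT mouse 2 (-0.80, adjusted p = 0.00419). Slc25a27, also called UCP4, was lower, at 65.5 ± 13.8 in CNOT3KO and 109.8 ± 14.1 in WT (SD, n = 3 each; log2 -0.60, limma adjusted p = 0.0437). Its call was lost without CNOT3KO mouse 1 (-0.46) or 3 (-0.64), without any 1 of the WT mice (-0.63 without mouse 1, -0.65 without mouse 2, -0.51 without mouse 3), with quantile normalization (-0.51) and with all its probe sets averaged (-0.24). That average takes in its other probe sets, all too dim to test, with mean signals of 11.8 to 26.0. Slc25a14 (UCP5) read 182 ± 34.5 in CNOT3KO and 159 ± 25.1 in WT (SD, n = 3 each; log2 0.16, not passed).

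Ucp1, the uncoupling protein of brown and beige fat, lies outside the naming rule. It read 43.9, 73.3 and 112 in CNOT3KO and 4.87, 8.90 and 5.74 in WT, with the groups apart. Its mean over the 6 arrays was below the limit for testing, so no test and no fold is given.

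Carriers with less settled substrates were split as well, with 2 of 6 tested passing as higher, 2 as lower and 2 not passing. This is 66.7% called, against 40.1% of all tested genes. The higher 2 include Slc25a34, tested only because of its CNOT3KO arrays, so its part in the count supports nothing. Slc25a45 was higher, at 549 ± 83.9 in CNOT3KO and 401 ± 24.8 in WT (SD, n = 3 each; log2 0.42, limma adjusted p = 0.0353). The call was lost without CNOT3KO mouse 1 (0.42) or 2 (0.32), without any 1 of the WT mice (0.38 without mouse 1, 0.46 without mouse 2, 0.43 without mouse 3) and with either centring (0.33 and 0.38). Slc25a53 was lower, at 91.2 ± 15.2 in CNOT3KO and 158 ± 12.4 in WT (SD, n = 3 each; log2 -0.68, limma adjusted p = 0.014). Its other probe set, nearly as bright, gave log2 -0.19 when tested singly and did not pass (limma adjusted p = 0.409). With its probe sets averaged the difference was -0.43, which still passed, and its call was lost without WT mouse 2 (-0.62). Slc25a46, which acts in the outer membrane on mitochondrial shape, read 3648 ± 244 in CNOT3KO and 3836 ± 476 in WT, and Slc25a35 read 965 ± 302 in CNOT3KO and 1005 ± 113 in WT (SD, n = 3 each; log2 -0.07 and -0.10). Neither passed. The 6 carriers too dim to test, Slc25a2, Slc25a18, Slc25a31, Slc25a41, Slc25a48 and Slc25a54, had mean signals over all arrays between 4.73 and 36.9.

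Probe sets of the same gene did not always give the same sign. Of the 46 carriers 22 had a single probe set, and 20 had several that were bright enough to test. In 5 of these 20, Slc25a12, Slc25a26, Slc25a36, Slc25a44 and Slc25a51, the log2 differences had opposite signs, and in Slc25a36 both signs passed. All tested probe sets passed in the same direction in Slc25a29, with 5 of 5 lower, and in Slc25a24, with 2 of 2 higher. Slc25a13, Slc25a16, Slc25a23, Slc25a33 and Slc25a34 had no other probe set bright enough to test.

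**Figure D4:**
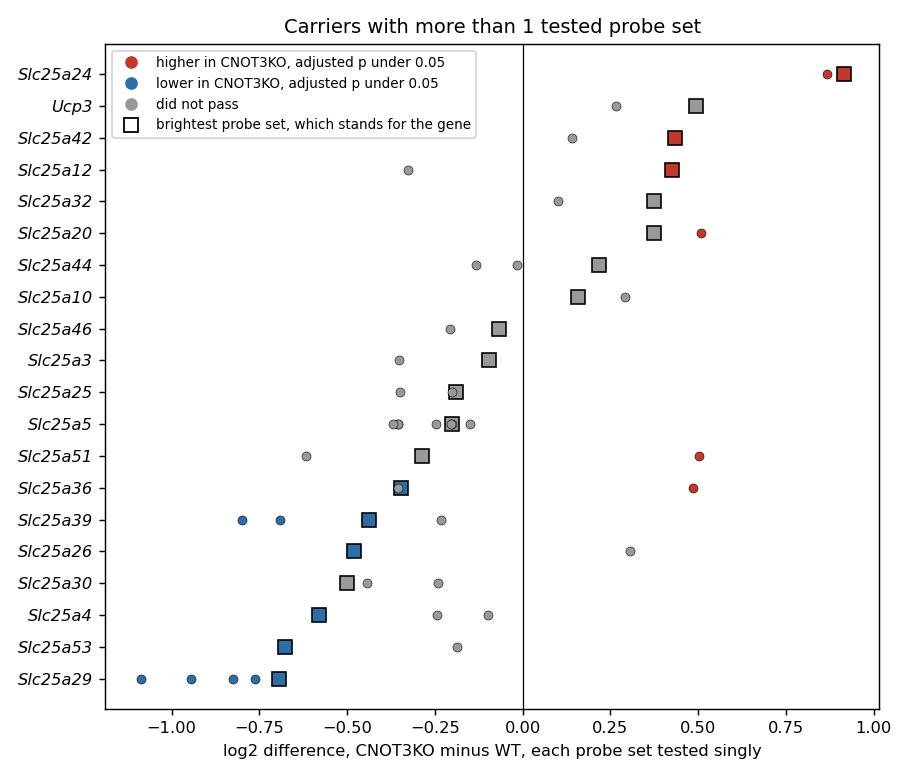
Log2 difference (CNOT3KO minus WT) of each tested probe set of the 20 carriers with more than 1 tested probe set, each probe set tested singly with limma over all probe sets. Squares mark the brightest probe set, which stands for the gene. The 5 probe sets of Slc25a29 all lie below -0.6, whereas Slc25a36 has points on both sides of 0.

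Of the 21 carriers that passed, 8 kept an adjusted p under 0.05 under each of the 19 alternative settings of the fit over genes in which they were tested: Slc25a4, Slc25a13, Slc25a16, Slc25a23, Slc25a24, Slc25a29, Slc25a33 and Slc25a34. These settings cover the offset, filter, scaling, probe set rule, variance model, block and left-out arrays, not a 2-fold threshold, which 4 of the 8 miss, nor single probe sets, of which 2 of Slc25a4 did not pass. Slc25a13 and Slc25a34 were tested only because of their CNOT3KO arrays, so their kept calls are not given as support. They were also too dim for the stricter filter on dim genes. The other 13 lost their call without at least 1 array, and they had absolute log2 differences of at most 0.68.

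**Figure D5:**
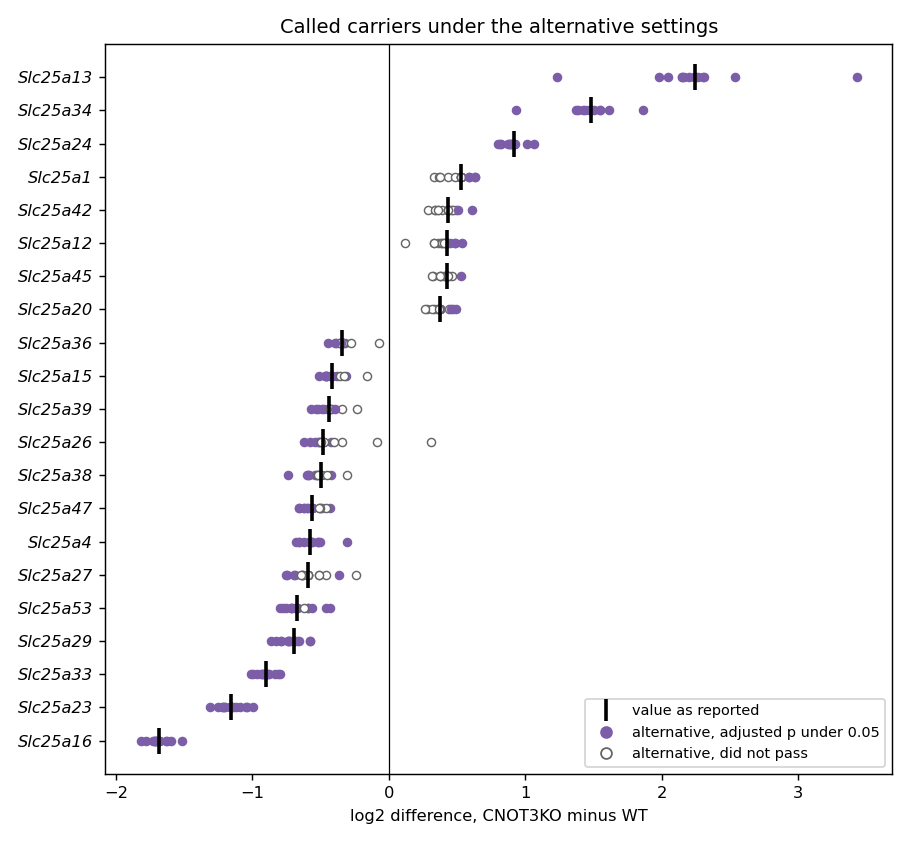
Log2 difference (CNOT3KO minus WT) of the 21 carriers that passed, under the alternative settings. Black bars give the value as reported, filled points the alternatives at which the carrier passed and open points those at which it did not. For Slc25a13 the values run from 1.23 to 3.43 with the offset, and for Slc25a26 an alternative choice of probe set gives 0.31, on the other side of 0.

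Genes that work beside the carriers were read from lists of related proteins. Of 16 tested enzymes of the shuttles that the carriers serve, 5 passed as higher, 1 as lower and 10 did not pass (37.5% called, median log2 difference 0.20). Got1, the cytosolic aspartate aminotransferase of the malate-aspartate shuttle, read 492, 478 and 438 in CNOT3KO and 112, 117 and 164 in WT. These groups stood far apart (3.24-fold, log2 1.70, limma adjusted p = 7.1e-05). Its mitochondrial partner Got2, singled out after its value was seen, was also higher, at 2349.7 ± 269 in CNOT3KO and 1367 ± 107 in WT (SD, n = 3 each; log2 0.77, limma adjusted p = 0.000846), a call that was lost with the mean of all probe sets (0.24). Cpt2, which makes acyl-CoA from the acylcarnitine that SLC25A20 imports, was 1.92-fold higher, at 10739 ± 1743 in CNOT3KO and 5548 ± 226 in WT (SD, n = 3 each; log2 0.94, limma adjusted p = 0.000369). Crat, carnitine acetyltransferase, was 1.79-fold higher, at 3816 ± 244 in CNOT3KO and 2114 ± 69.1 in WT (SD, n = 3 each; log2 0.84, limma adjusted p = 0.000175).

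Of 15 tested inner membrane transporters outside the family, 4 passed as higher, 3 as lower and 8 did not pass (46.7% called, median 0.19). Sfxn2, of the sideroflexin family, was lower, at 311 ± 22.5 in CNOT3KO and 601 ± 22.0 in WT (SD, n = 3 each; log2 -0.90, limma adjusted p = 0.000365). Letm1, which acts in cation exchange, and Micu2, a regulator of the calcium uniporter, were higher (log2 0.86 and 0.84, limma adjusted p = 0.0011 and 0.000373). Of 18 tested genes of outer membrane pores and of the TIM and TOM import machinery, which also inserts the carriers into the inner membrane, 5 passed as higher, 2 as lower and 11 did not pass (38.9% called, median 0.17). Timm44, which tethers the import motor, was higher at 3642 ± 485 in CNOT3KO and 2230.1 ± 154 in WT (SD, n = 3 each; log2 0.70, limma adjusted p = 0.00147). Timm10, a chaperone for carriers between the membranes, and Timm22, the channel of the complex that inserts them, were higher too (log2 0.65 and 0.55, limma adjusted p = 0.0143 and 0.00455). The Timm10 call was lost without WT mouse 2 (0.62), and that of Timm22 with the mean of all probe sets (0.28). The 3 lists had 37.5% to 46.7% of their genes called, against 40.1% of all tested genes, which is near the background.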

How the data were processed

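RNA from the epididymal fat of 3 CNOT3KO and 3 WT mice was hybridised to 1 Affymetrix array each, from 500 ng of total RNA per the labels' protocols. What the authors deposited is a linear signal intensity for each probe set on each array. Per the submitters' processing notes it came from MAS5, of which the sources used here give neither version nor scaling target. After trimming 2% of probe sets at each end, array means lay within 0.0701% of each other, so the arrays had a common scale. Median signals were 82.1 to 88.0 in CNOT3KO and 91.9 to 92.9 in WT. Precision is limited by the number of arrays.

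Of 45037 probe sets, 34945 named 1 gene, 932 several and 9160 none in the annotation used. Entrez numbers of 34741 were found in the RefSeq table (GRCm38.p6), and 0 symbols were updated. Genes whose brightest probe set had a mean signal below 51.6 (40th percentile) were not tested, which left 12769 and set aside 5424. The test was limma 3.58.1 (R 4.3.3; lmFit, eBayes with trend) on log2(signal + 22.5), two-sided and with an offset equal to the 25th percentile of the table, with Benjamini-Hochberg adjustment over all tested genes. It rests on 4 residual degrees of freedom, and the median SE was 0.15. The code was tested on simulated data. Python 3.11.15, numpy 2.4.6, pandas 2.3.3 and matplotlib 3.10.9 were used for counts, motifs and plots.

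The carriers and all gene lists were chosen with earlier results of these data known. Values on every array are given for carriers that passed with an absolute log2 difference of at least 0.8, for Slc25a1, Slc25a3, Slc25a4, Slc25a5, Slc25a10, Slc25a11, Slc25a20 and Mpc1, and for the 3 smallest adjusted p among those that did not pass. Of other lists, up to 3 members with the largest change were named, beside Cnot3 and Ucp1. Alternatives were the offset, the filter, quantile normalization, 2 centrings (on ribosomal protein genes and on the median of tested genes), which probe sets stand for a gene, eBayes run robustly or with no trend, weights per array, a block on mouse number, stricter thresholds and leaving out each array. The mean of all probe sets takes in those too dim to test singly. Testing every probe set singly was chosen after seeing the data. Titles number the mice 1 to 3 within each group, with no word on litters or days, so the reported fit has no block.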

Additional observations from a re-analysis of the deposited data

How the results depend on the processing

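The number of higher carriers was 8 as reported. It became 3 without the filter on dim genes, 3 with centring on the median of the tested genes and 3 with centring on ribosomal protein genes. With the mean of all probe sets it became 5. Among all genes, 2959 higher as reported became 2775, 2318, 2303 and 2456 in the same order. Without the filter these counts are of 46 carriers and 18193 genes, and otherwise of 40 and 12769. With each array left out, higher carriers ran from 4 to 8 and lower carriers, 13 as reported, from 7 to 11. The same fits gave 2199 to 2676 higher and 1556 to 1978 lower among all genes. At an adjusted p under 0.01 there were 3 higher and 5 lower carriers, and at 2-fold or more 2 and 2. The higher carriers at both thresholds include Slc25a13 and Slc25a34, which were tested only because of their CNOT3KO arrays. For all tested genes these thresholds gave 1895 higher and 1249 lower, and 829 higher and 425 lower. Array weights gave 9 higher and 17 lower carriers, against 3683 higher and 2932 lower among all 12769 tested genes. Without the filter on dim genes, Slc25a1, Slc25a12, Slc25a20, Slc25a26, Slc25a27, Slc25a38, Slc25a42 and Slc25a45 lost their calls. With eBayes run with no trend, Slc25a1, Slc25a20, Slc25a26 and Slc25a38 lost theirs. The median over the carriers stayed below 0, between -0.23 and -0.08.

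Same-numbered mice of the 2 groups deviated together only weakly (r = 0.0742, 0.109 and 0.0433 across genes), so the numbers were not taken to pair the mice, although each array correlated best with its own number. With the replicate block 8 carriers were higher and 11 lower, and among all genes 2910 and 2182. Slc25a1 (0.53), Slc25a27 (-0.60) and Slc25a38 (-0.50) lost their call with it, and Slc25a32 (0.38) gained one.

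Signs turned in results that had not passed and in some that had. Of those that had not, Slc25a22 was -0.0088 and Slc25a37 -0.047 with centring on the median of the tested genes. With each array left out, Slc25a22 ran from -0.11 to 0.28, Slc25a35 from -0.32 to 0.12 and Slc25a37 from -0.049 to 0.12. The ratio of Slc25a10 to Slc25a11 ran from -0.13 to 0.077, and was 0.058 with the mean of all probe sets. Slc25a26, which had passed as lower, was 0.31 when probe sets open to cross-hybridisation were passed over. It was also 0.31 when its dimmer probe set was tested singly. Tested singly, dimmer probe sets gave -0.33 for Slc25a12, which had passed as higher, and 0.48 for Slc25a36, which had passed as lower. For carriers that had not passed they gave -0.13 and -0.017 for Slc25a44, and 0.50 for Slc25a51. Of the other values of single genes and of within-array ratios, 956 kept their direction and, for single genes, also their side of the threshold. Another 93 values of single genes lost their call and 13 gained one. The causes were not tested. Signals of genes below 51.6 are too dim to order, and 3 arrays per group limit every value.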
